A study of Homo sapiens with 4 samples.

Results

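Intragenic distal regions gained with I-BET151 are stretches of open chromatin that lay inside protein-coding genes, away from gene starts, and were called in the I-BET151 libraries but not in the DMSO libraries. Overlapping peaks of the 4 lists (1 bp or more, chromosomes 1 to 22, X and Y) were joined into merged regions, and the members were chosen by 3 conditions. A member had a peak from each of the I-BET151 libraries and none from DMSO, its midpoint lay inside the body of a protein-coding gene, and that midpoint was more than 3 kb from every protein-coding gene start. The rule found 12946 members among 164301 merged regions. Of the 74486 intragenic distal regions of any kind, 17.4% were members, and of all merged regions 17% were gained, with a call from each I-BET151 list and none from DMSO. The number depended on the lists: it was 31195 without I-BET151 replicate 1, 21809 without I-BET151 replicate 2, 7298 when peaks needed a −log10 p of at least 10, and 2682 when every list was cut to the same number of peaks. Because these peak calls chose the members, the calls themselves are given as a description with no test.

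The cells were pancreatic progenitors differentiated from MEL1, an established human embryonic stem cell line that the study's methods call MEL1 INS GFP/W. All cells grew in EF6 medium, a DMEM base with B27 at 1:50 to which the growth factors EGF (at 50 ng/ml) and bFGF (at 10 ng/ml) were added together with a TGF-β receptor inhibitor, 616452, at 10 μM, so both groups carried that inhibitor. The DMSO group received the solvent and the I-BET151 group received 1 μM I-BET151, an inhibitor of BET bromodomain proteins, for 7 days. Each group had 2 ATAC-seq libraries made from 50000 cells each, and nothing in the labels says that the libraries came from separate differentiations, so the spread between them may be technical.

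ATAC-seq inserts sequencing adapters into accessible DNA with the Tn5 transposase, so that reads pile up over promoters, enhancers and insulators. Open regions inside genes but far from gene starts are often enhancers or binding sites of CTCF, a zinc finger protein that shapes chromatin loops with cohesin. BET proteins read acetylated histones and recruit the transcription machinery to enhancers and promoters, and I-BET151 occupies their acetyl-lysine pocket. In pancreatic progenitors, enhancers are known to be bound by combinations of FOXA, GATA, ONECUT, SOX and homeodomain factors such as PDX1 and NKX6-1.

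Sequence motifs were searched on both strands within 100 bp of the summit, which is the position of the highest pileup, taken from the region's strongest peak by fold enrichment. The 6 members with a CTCF consensus and the highest fold enrichment, ranked by the lower of the 2 I-BET151 values, are shown first, because CTCF had the highest ratio of its share in members to its share in intragenic distal regions called in all 4 lists, 1.79. Sequences are those of the hg38 reference on its forward strand, with the match in capitals.
GLYAT, chr11:58654164-58654277: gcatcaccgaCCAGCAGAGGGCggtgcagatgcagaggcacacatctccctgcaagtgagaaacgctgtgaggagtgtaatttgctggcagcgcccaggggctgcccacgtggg
PPFIA2, chr12:81451329-81451476: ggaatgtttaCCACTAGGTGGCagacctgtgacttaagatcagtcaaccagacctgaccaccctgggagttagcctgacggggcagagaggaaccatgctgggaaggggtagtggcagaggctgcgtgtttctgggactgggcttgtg
ANO5, chr11:22245157-22245270: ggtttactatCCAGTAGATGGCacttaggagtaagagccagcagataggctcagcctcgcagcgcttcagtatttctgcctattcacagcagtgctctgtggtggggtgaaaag
ASTN2, chr9:116860697-116860796: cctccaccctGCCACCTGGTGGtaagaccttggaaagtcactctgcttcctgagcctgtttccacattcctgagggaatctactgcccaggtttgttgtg
PLCB1, chr20:8853948-8854029: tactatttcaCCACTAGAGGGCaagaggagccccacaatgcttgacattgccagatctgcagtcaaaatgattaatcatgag
SSBP2, chr5:81507094-81507174: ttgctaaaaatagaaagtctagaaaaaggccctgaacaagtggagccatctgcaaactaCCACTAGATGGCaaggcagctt

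These 6 matches lay between 24.5 and 91.5 bp from the summit, 5 on the forward strand and 1, in ASTN2, on the reverse strand. ANO5 encodes an anoctamin membrane protein, ASTN2 a neuronal astrotactin, PLCB1 a phospholipase C and PPFIA2 a synaptic liprin. In the I-BET151 lists the GLYAT region had fold enrichments of 14.7 in replicate 1 and 13.9 in replicate 2, and the SSBP2 region had values of 12.4 and 11.8. The ANO5 region reached 15.1 and 12.7, the ASTN2 region 12.5 and 13.1, the PLCB1 region 12.4 and 14.2, and the PPFIA2 region 13.8 and 14.5. No peak was called at any of the 6 in either DMSO list.

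Matches to motifs of pancreatic and signaling factors were shown in the same way by the 1 member per motif with the highest fold enrichment among those with a match within 50 bp of the summit. For AP-1 the letters searched were TGANTCA. Forkhead factors of the FOXA group were searched by TGTTTAC and likewise by TATTTAC, and GATA factors by AGATAA and likewise by TGATAA. For ONECUT factors the search used ATTGAT and likewise ATCGAT, and for homeodomain factors it used TAATTA. RBPJ, the DNA-binding partner of Notch, was searched by its consensus. The ONECUT and GATA letters can overlap on a shared TGAT, and a region can then count for both.
AP-1, FSTL5, chr4:161630155-161630235: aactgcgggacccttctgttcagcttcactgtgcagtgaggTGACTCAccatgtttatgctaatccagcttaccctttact
FOXA, ADGRL2, chr1:81849060-81849140: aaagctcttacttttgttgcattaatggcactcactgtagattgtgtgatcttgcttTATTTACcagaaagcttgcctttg
GATA, VPS36, chr13:52428529-52428609: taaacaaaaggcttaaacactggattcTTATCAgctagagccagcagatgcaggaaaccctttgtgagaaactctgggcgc
ONECUT, LRP1B, chr2:141582424-141582504: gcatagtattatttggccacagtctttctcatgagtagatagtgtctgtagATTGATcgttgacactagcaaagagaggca
homeobox, LUZP2, chr11:24646451-24646539: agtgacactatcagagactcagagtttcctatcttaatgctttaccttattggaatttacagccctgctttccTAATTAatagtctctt
RBPJ, RALGAPA1, chr14:35558783-35558863: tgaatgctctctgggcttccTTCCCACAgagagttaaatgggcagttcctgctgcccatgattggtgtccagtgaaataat

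The FSTL5 region lay in intron 7 of its 16-exon gene, with the AP-1 match 4 bp from the summit, and had fold enrichments of 12.9 and 12.8 in the I-BET151 lists. In ADGRL2, an adhesion G protein-coupled receptor gene, the FOXA match lay 20 bp from the summit of a region with values of 12.9 and 14.1. The GATA match in intron 6 of VPS36, which encodes a subunit of the ESCRT-II sorting complex, was on the reverse strand and lay 10.5 bp from the summit. The LRP1B, LUZP2 and RALGAPA1 matches lay 13.5, 35.5 and 16.5 bp from their summits. HNF1 sites were rare, with 2 members holding the HNF1 consensus.

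Depth differed between the groups and bears on every value. The DMSO lists held 82568 and 38295 peaks, and the I-BET151 lists held 84995 and 111324. By an estimate from the background behind the p-values, the DMSO libraries had 38.7 and 36.6 M reads but the I-BET151 libraries only 12.5 and 16.0 M, so the members were called in the shallower libraries and not in the deeper ones. Promoters of pancreatic progenitor markers had peaks at 8 and 7 of 9 genes with DMSO and at 9 of 9 genes in both I-BET151 lists, and those of the pluripotency genes POU5F1, NANOG and PRDM14 had none in any list. For liver markers the counts were 2 and 2 of 4 genes with DMSO and 3 and 4 with I-BET151, for mesenchyme markers 3 and 3 against 4 and 4 of 4, and for endocrine markers 2 and 0 against 3 and 3 of 5, and for neuronal markers 3 and 1 against 1 and 1 of 3. Over the longer gene lists described further on, 4 of 25 mesenchyme genes had a promoter peak in more I-BET151 than DMSO lists and 2 in fewer, 6 and 2 of 25 liver genes, 12 and 3 of 30 endocrine genes and 10 and 1 of 30 neuronal genes. The remaining lists leaned the same way, with 5 and 0 of 30 progenitor, 11 and 0 of 39 Notch and 8 and 1 of 30 epithelial genes. Hippo and WNT genes had 6 and 0 of 30, growth factor receptors and SMADs 2 and 0 of 30, and pluripotency genes 3 and 2 of 20. The share over all genes was not counted, so these counts cannot be read for any single cell type. In a bulk sample a change in the share of cells of a type and a change within cells cannot be told apart, and the part of such markers in the results was not tested.

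The members were open to a moderate degree. Fold enrichment, the pileup of reads at the summit over the local background with 1 added to each, had a median of 5.33 in I-BET151 replicate 1, with a range of 2.57 to 16.8, and of 5.96 in replicate 2, with a range of 2.33 to 19.3. The pileup at the summit, solved from the fold enrichment and the p-value, had medians of 12 and 19 reads and ranges of 5 to 51 and 6 to 87 reads. A pileup this small carries a large counting error in any single region. Within each I-BET151 list the members sat near the middle by fold enrichment, at median percentiles of 45.3 and 48.4, and 1.91% and 2.46% of them were in the top decile. In regions called in all 4 lists, the median fold enrichment was 7.66 and 9.71 in the I-BET151 lists and 4.92 and 4.33 in the DMSO lists.

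Scaled to the depth of each library, the pileup of the members had medians of 0.963 and 1.19 reads per M reads. The lowest pileup called was 0.259 and 0.301 reads per M reads with DMSO and 0.401 and 0.375 with I-BET151, so any peak called with I-BET151 was above both DMSO limits, members or not. The median of all peaks in the DMSO lists was 0.491 and 0.601 reads per M reads, and 91.2% of the members in replicate 1 and 94.3% in replicate 2 were above the higher of these. The values of the I-BET151 libraries were higher throughout on this scale, since all of their peaks had medians of 1.04 and 1.25 reads per M reads. At intragenic distal regions called in all 4 lists, the medians were 0.672 and 0.656 with DMSO and 1.85 and 3.06 with I-BET151. A difference in signal between the libraries and an effect of the treatment cannot be told apart here, for members or other regions. Across members the scaled pileup of both I-BET151 libraries had a Spearman correlation of 0.68 over 12944 members, which share the same calls.

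**Figure D1:**
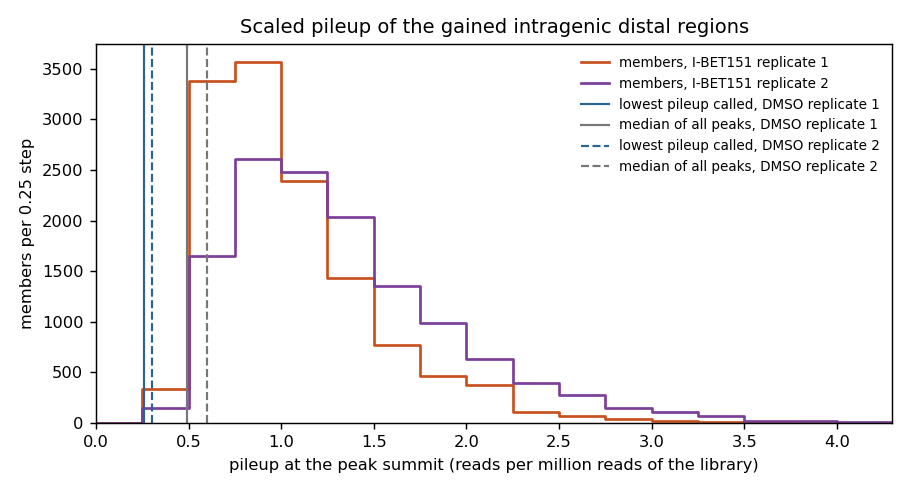
Histogram of the scaled pileup of the members in each I-BET151 library, in summit reads per M library reads, in steps of 0.25. The vertical lines mark the lowest pileup called (blue) and the median of all peaks (gray) in the DMSO libraries, and the lowest pileup called with I-BET151, 0.401 and 0.375, lies to the right of the blue lines at 0.259 and 0.301.

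The 12 members with the highest fold enrichment, by the lower of the 2 lists, lay in 11 genes. The strongest was a 414-bp region in intron 6 of C12orf50 (chr12:87995634-87996047), with fold enrichments of 15.5 in both I-BET151 lists and pileups of 33 and 48 reads. Next came a region of 592 bp in intron 3 of GUCA1C, a photoreceptor guanylate cyclase activator (chr3:108914855-108915446), with values of 15.1 and 15.6. LRP1B, a giant LDL receptor relative, held 2 of the 12, in introns 43 and 2, with values of 15.4 and 15.1 and of 14.2 and 15.6. The others were in TBC1D5, VPS36, RALGAPA1, TIAM2, WDR7, GLYAT, PPFIA2 and TSHR, the thyrotropin receptor gene, where the lower value of the pair ranged from 13.7 to 15. The TIAM2 region, in a gene for a Rac exchange factor, had the highest pileups of the 12, 51 and 68 reads, and the nearest DMSO peak lay 183 bp away. For the other 11 that gap ranged from 4880 to 72294 bp.

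Most members were separate from open chromatin seen with DMSO. The median gap to the nearest DMSO peak was 10657 bp, and 681 members (5.26%) had one within 1 kb. Members were spread along chromosomes, with a median of 72524 bp between neighbors. Just outside the calling rule lay 26048 intragenic distal regions called in 1 I-BET151 list and no DMSO list, whose median fold enrichment was 4.17 in replicate 1 and 4.57 in replicate 2. Another 4572 had calls from both I-BET151 libraries and from 1 DMSO library, with medians of 5.75 and 7.48 in the I-BET151 lists. At the distance limit, the 85 members between 3 and 3.5 kb from a gene start had median fold enrichments of 4.88 and 5.17, and the 67 gained regions in genes between 2.5 and 3 kb had values of 5.14 and 5.53.

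The calls of the lists numbered 1 were also followed in the lists numbered 2, as a description, since the regions that keep an I-BET151-only call are the 12946 members. The labels do not say whether same-numbered lists came from paired cultures, so the numbers only name the lists here. Of 21512 intragenic distal regions called with I-BET151 and not with DMSO in the lists numbered 1, 60.2% (95% Wilson interval 59.5 to 60.8%) showed the same in the lists numbered 2, and 18 regions (0.0837%) showed the reverse. Regions called with DMSO and not with I-BET151 in the lists numbered 1 came to 20906, of which 8.30% showed the same in the other lists and 16.5% showed the reverse. Starting from the lists numbered 2, 33.7% of the 38461 I-BET151-only regions and 64.1% of the 2707 DMSO-only regions kept their direction. The lists differ in length, and with equal numbers of peaks in each list, an alternative added after seeing the data, the shares of I-BET151-only regions that kept their direction were 38.0% and 43.8%, against 23.4% and 31.4% for DMSO-only regions.

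Gained regions lay in genes about as often as outside them. Of the 27885 gained regions, 46.4% (45.8 to 47.0%) were intragenic distal, 46.2% were intergenic and 7.33% lay within 3 kb of a gene start. Regions called in all 4 lists were split as 33.3%, 30.7% and 36%. Regions called in both DMSO lists and in no I-BET151 list were split as 44.5%, 49.6% and 5.90%. Those with any other combination of calls were split as 48.0%, 46.8% and 5.25%. The split of gained regions was thus near that of other regions not called in all 4 lists. Over the libraries, the intragenic distal share of all peaks was 42.0% and 36.7% with DMSO and 41.8% and 44.6% with I-BET151. The groups overlapped, the mean difference was 3.86 percentage points, and p was 0.67 in a two-sided exact permutation test, where 2 against 2 libraries cannot go below 0.33. The difference was 6.50 without DMSO replicate 1 and 1.22 without DMSO replicate 2, and 0.257 with equal numbers of peaks in each list.

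Inside their genes, members were mostly intronic. Of the 12946 members, 82.5% had their midpoint in an intron of the canonical transcript, 21.1% in intron 1, 2.2% in a coding exon and 2.63% in a UTR or noncoding exon, while 12.7% lay in the gene body outside that transcript. The intron share was 75.4% in regions called in all 4 lists and 81.0% in all intragenic distal regions. Of the members, 9.98% (9.48 to 10.5%) were within 1 kb of the start of another protein-coding transcript. This share was 11.04% in all intragenic distal regions and 14.1% in regions called in both DMSO lists only. It was 24.7% (23.8 to 25.7%) in regions called in all 4 lists. Starts of lncRNA transcripts were within 1 kb of 1.78%, 2.09%, 1.21% and 5.65% of these sets, in the same order. Members were thus near all intragenic distal regions in both shares, and regions called in all 4 lists stood apart. The median width was 476 bp in members and 733 bp in regions called in all 4 lists. It was 422 bp in regions called in both DMSO lists only and 389 bp in all intragenic distal regions. A merged region spans the peaks of every list that called it, so its width depends on the number of lists.

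Members lay farther from gene starts than lost regions and than regions called in all 4 lists, named constant regions for short. The name refers to the calls only, since their median fold enrichment was 4.92 and 4.33 with DMSO and 7.66 and 9.71 with I-BET151. The median distance of members and of the other sets is given next. For members the median distance to the nearest protein-coding gene start was 64342 bp, compared with 45754 bp for the 8535 regions called in all 4 lists. It was 32022 bp for the 1735 regions lost, that is, called in both DMSO lists and in no I-BET151 list. The member share of intragenic distal regions was 14.3% (13.6 to 15.1%) at 3 to 10 kb, 15.8% at 10 to 50 kb, 17.8% at 50 to 100 kb, 19.7% at 100 to 500 kb and 22.4% (20.8 to 24.1%) beyond 500 kb. The lost share ran the other way, from 3.39% at 3 to 10 kb to 0.976% beyond 500 kb. GC content fell along the same bins, from a median of 52.2% to 42.8%, and the member shares that the GC content of the regions alone would give were 16.2% and 19.2% in the nearest and farthest bins. The part of GC content in these differences was otherwise not tested.

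The median GC content of the members within 100 bp of the summit was 44.8%, near the 44.3% of gained intergenic regions, compared with 49.3% for regions called in all 4 lists, 54.7% for lost regions and 66.2% for gained regions near gene starts. By GC content the member share had 2 maxima: it was 22.5% (21.7 to 23.3%) at 35 to 40% GC, fell to 12.1% (11.4 to 12.8%) at 55 to 60%, and was 21.5% (19.5 to 23.7%) at 70% and above. Lost regions peaked between, with 5.92% at 60 to 65% GC, 0.283% at 35 to 40% and 0.557% at 70% and above. The libraries themselves differed in GC content. The median over intragenic distal peaks was 50.7% and 49.3% with DMSO and 47.3% and 45.3% with I-BET151, so both I-BET151 values were below both DMSO values (difference -3.73 percentage points, two-sided exact permutation p = 0.33, the smallest possible). GC content thus moved with the groups, and its part in the choice of members was not tested.

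**Figure D2:**
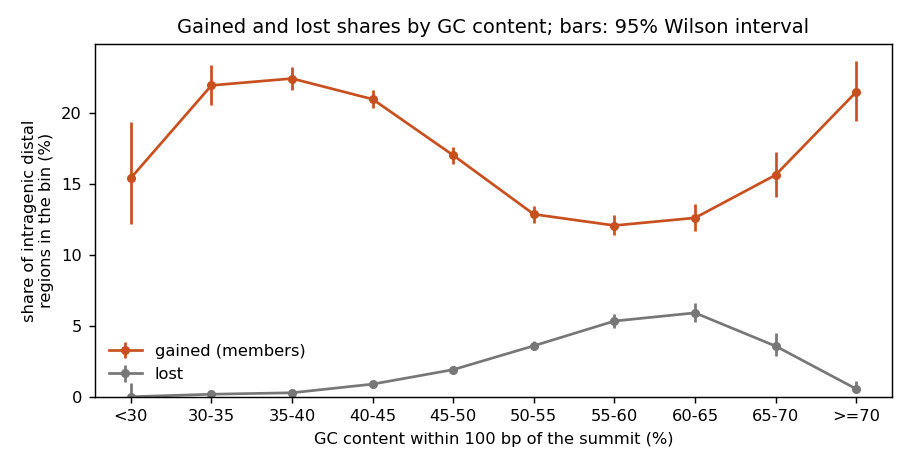
Share of intragenic distal regions that were gained (orange) or lost (gray), in percent on the vertical axis, in bins of GC content on the horizontal axis, with 95% Wilson intervals. The gained share is 22.5% at 35 to 40% GC and 12.1% at 55 to 60%, and the lost share is largest at 60 to 65% GC, with 5.92%.

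CTCF had the highest ratio between members and constant regions of the 12 motifs, although AP-1, GATA and ONECUT differed by more percentage points. The CTCF consensus lay within 100 bp of the summit in 545 members, 4.21% (3.88 to 4.57%), compared with 2.36% (2.05 to 2.70%) of regions called in all 4 lists, 0.461% (0.234 to 0.907%) of lost regions and 1.88% of all intragenic distal regions. Reweighting the regions called in all 4 lists to the GC content of the members lowered their share to 2.01%, so the difference of 1.85 percentage points became 2.2. Gained intergenic regions held the consensus in 4.3% (3.96 to 4.66%), a value within the interval of the members, and gained regions near gene starts in 2.54% (1.94 to 3.32%). With 1 mismatch allowed, an alternative added after seeing the data, the shares were 13.8% of members, 9.09% of regions called in all 4 lists and 4.44% of lost regions. These intervals cover counting error only, since regions are not replicates. The difference from constant regions depended on having both I-BET151 lists, being 0.410 percentage points without replicate 1 and 0.268 without replicate 2, when members needed a peak in the remaining list only, and the member share was 2.39% without replicate 1.

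Within the members, the CTCF share rose with the strength of the peak. It was 2.16% in the 2589 members with the lowest fold enrichment, by the lower of the 2 lists, then 2.47%, 3.94% and 5.56%, and 6.91% in the 2590 members with the highest values. In the same order GATA was at 25.8%, 30.9%, 28.4%, 28.1% and 28.1%, ONECUT at 11.7%, 13.7%, 14.4%, 15.2% and 14.6%, and AP-1 at 9.23%, 10.9%, 10.4%, 10.0% and 9.61%. Members with the CTCF consensus had a median lower fold enrichment of 5.72, compared with 5.04 for the other 12401 members. They lay in 523 genes, 2 of which had 3 such members, and their median distance to a gene start was 51623 bp, compared with 65076 bp for the other members. The match lay a median of 37.5 bp from the summit and was within 25 bp in 34.7% of them. It was on the strand of the host gene in 247 of 545 (45.3%, 41.2 to 49.5%).

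Per library, the CTCF share of intragenic distal peaks was 1.38% and 1.54% with DMSO and 3.40% and 2.34% with I-BET151. Both I-BET151 values were above both DMSO values, with means of 1.46% ± 0.112 (SD, n = 2) and 2.87% ± 0.747 (SD, n = 2) and a two-sided exact permutation p = 0.33, the smallest that 2 against 2 libraries allow. The 2 I-BET151 libraries differed from each other by more than the DMSO libraries did, and without I-BET151 replicate 1 the difference of 1.41 percentage points became 0.885.

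Motifs of pancreatic factors were common in the members, and their comparison with constant regions turned on GC content. GATA letters were present in 28.3% (27.5 to 29.0%) of the members, ONECUT letters in 13.9% (13.3 to 14.5%), FOXA letters in 10.2% (9.72 to 10.8%), SOX letters (ACAATGG or ACAAAGG) in 9.70% and TAATTA in 5.85%. In regions called in all 4 lists the shares were 24.4%, 10.1%, 9.61%, 9.53% and 4.59%. Weighted to the GC content of the members, these became 31.4%, 13.3%, 12.6%, 10.6% and 6.69%, so that the members were then below the constant regions for GATA, FOXA, SOX and TAATTA and still 0.64 percentage points above for ONECUT. Lost regions held fewer of the 5 motifs, also when weighted to the GC content of the members, with 19.8% for GATA, 8.25% for ONECUT, 5.90% for FOXA, 7.69% for SOX and 3.48% for TAATTA. Over all intragenic distal regions the shares were 24.0%, 9.91%, 8.57%, 8.50% and 4.93%, in the order GATA, ONECUT, FOXA, SOX and TAATTA. At the GC content of the members these became 26.6%, 11.1%, 9.58%, 8.7% and 5.67%. Each stayed below the share in members, the last within the members' interval of 5.46 to 6.26%. None of the 12 motifs searched was present in 28.8% of the members, in 32.8% of regions called in all 4 lists and in 50.5% of lost regions.

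AP-1, the dimer of FOS and JUN proteins, was less frequent in members than in constant regions with and without the GC weighting. Its letters, TGANTCA, were present in 10.0% (9.52 to 10.6%) of the members and in 14.7% (14.0 to 15.5%) of regions called in all 4 lists, or 16.4% at the GC content of the members. Lost regions held it in 6.63% (5.55 to 7.90%). HNF4 letters (CAAAGTCCA) were in 0.525% of the members and in 1.15% of regions called in all 4 lists. TEAD letters (GGAATG), RBPJ letters and the E-box CAGCTG differed little, with 15.8%, 2.39% and 13.8% of the members and 16.4%, 2.25% and 14.8% of regions called in all 4 lists.

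**Figure D3:**
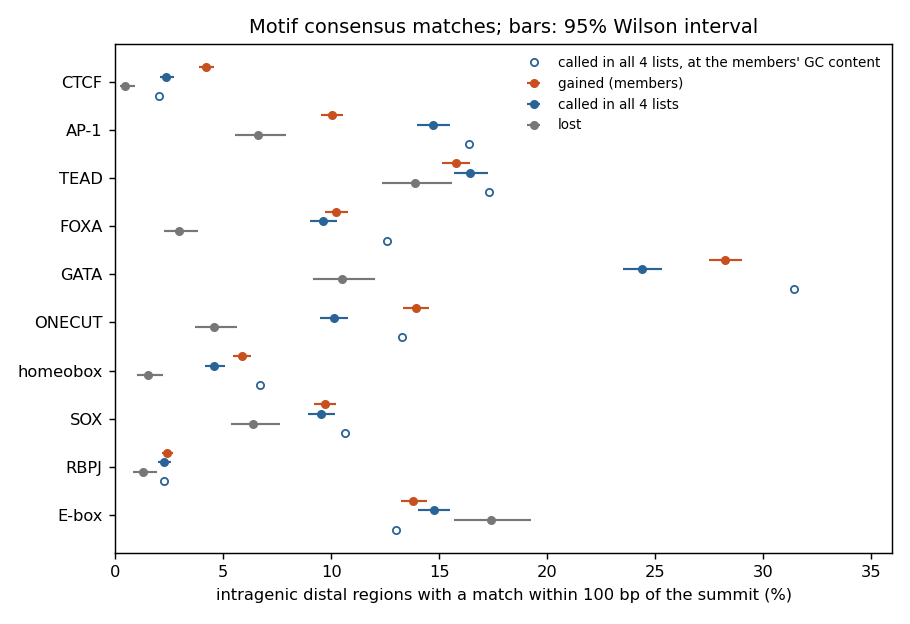
Share of intragenic distal regions with a motif match within 100 bp of the summit, in percent, for gained, constant and lost regions, with 95% Wilson intervals. Constant regions are those called in all 4 lists. Open circles give the constant regions at the GC content of the members; CTCF is at 4.21% in members and 2.01% there, AP-1 at 10.0% and 16.4%.

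Library by library, GATA letters were in 19.4% and 21.5% of intragenic distal peaks with DMSO and in 25.6% and 27.8% with I-BET151. ONECUT letters were in 7.12% and 8.74% with DMSO and in 12.3% and 11.2% with I-BET151, and FOXA letters in 7.26% and 7.98% and in 9.81% and 10.1%. TEAD, SOX and TAATTA were likewise higher in both I-BET151 lists than in both DMSO lists, by 0.83, 1.2 and 1.46 percentage points on average. AP-1 overlapped, with 12.6% in both DMSO lists and 11.7% and 13.8% with I-BET151 (p = 1 in the two-sided exact permutation test). For the motifs without overlap the same exact permutation test gave p = 0.33, its smallest possible value, before any adjustment for the 12 motifs, and GC content differed between the same libraries as given above.

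**Figure D4:**
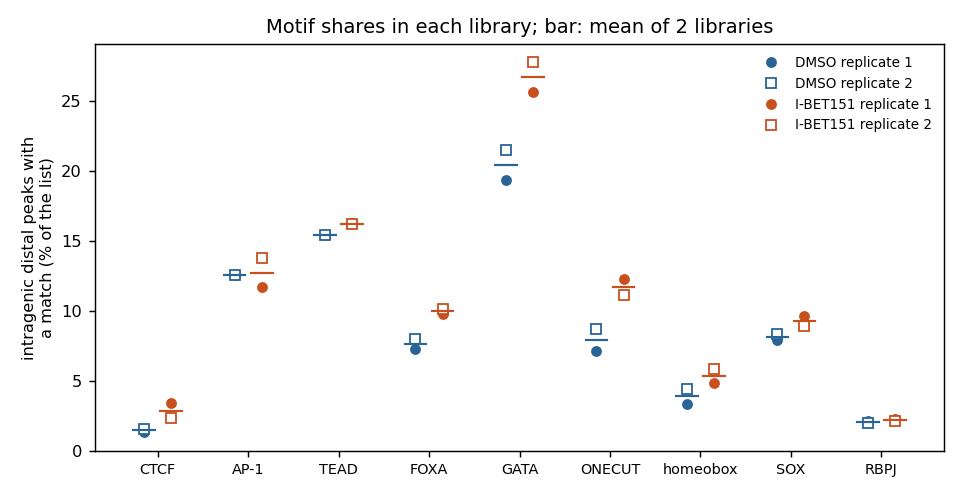
Share of intragenic distal peaks with each motif, in percent of the list, for the 2 DMSO (blue) and 2 I-BET151 (orange) libraries, with circles for replicate 1, squares for replicate 2 and bars for the mean. CTCF, GATA, ONECUT and FOXA are higher in both I-BET151 libraries, while the AP-1 values overlap.

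Chromosomes contributed unequally. Among intragenic distal regions the member share was lowest on chromosomes 19 (8.66%, 183 of 2114), 16 (10.9%) and 22 (11.1%) and, among chromosomes 1 to 22 and X, highest on the X chromosome (28.8%, 393 of 1363). The GC content of the regions alone would give 14.4%, 15.8%, 15% and 18.0%. Lost regions were 7.14% of those on chromosome 19 and 0.660% of those on the X chromosome. In each library the X chromosome carried 1.01% and 1.04% of the intragenic distal regions called with DMSO and 2.11% and 2.32% of those called with I-BET151, a ratio of means of 2.15. Chromosome 19 carried 4.25% and 4.18% with DMSO and 2.29% and 1.95% with I-BET151, a ratio of 0.501. For both chromosomes the groups did not overlap (p = 0.33, exact permutation test, two-sided). The same held for all chromosomes without overlap, which were 10 with a higher share with I-BET151 and 7 with a lower one, while 6 overlapped. At the 534 X-linked regions of any class called in all 4 lists, promoter-near and intergenic ones included, the median scaled pileup relative to autosomal regions was 0.862 and 0.923 with DMSO and 1.11 and 0.964 with I-BET151. At the 114 intragenic distal regions among them, it was 0.870 and 0.917 with DMSO and 1.09 and 0.939 with I-BET151.

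The members fell in 5465 host genes, 46.4% of the 11789 protein-coding genes with any intragenic distal region. Without I-BET151 replicate 1 there were 8360 host genes, and with equal numbers of peaks 1997. Single members were found in 2891 genes, at least 5 in 639 and at least 10 in 142, and those 142 held 14.7% of all members. Host genes were long, with a median of 103223 bp compared with 35170 bp for genes that had intragenic distal regions but no member. Of genes of 10 to 30 kb with such regions, 21.4% held a member, and of those of 300 to 1000 kb, 95.1%. Per length these classes were alike, with 1.15 and 1.08 members per 100 kb, while genes under 10 kb with such regions held 2.57 per 100 kb. The gene start had a peak within 3 kb in all 4 lists in 59.8% of host genes, in no list in 14.3%, and in both I-BET151 lists only in 8.55%. Genes of the first kind held 61.5% of members, 60.5% of regions called in all 4 lists and 55.6% of lost regions. Genes with no such peak held 12.9%, 14.6% and 14.5% of them, so members were near the other regions. For the third kind no comparison set was counted.

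The 8 genes with the most members were giants, several of them known from neurons. PTPRD, a receptor-type tyrosine phosphatase, held 28, ROBO2, a receptor for SLIT guidance cues, 27, CTNNA2, the neural α-catenin, 23, and PDE4D, a cAMP phosphodiesterase, 23. AUTS2, LRP1B and EYS held 22 each and TENM4, a teneurin, held 20. Their lengths of 788202 to 2298757 bp gave 1.11 to 2.54 members per 100 kb. ROBO2 and CTNNA2 had no peak within 3 kb of the annotated gene start in any list. Per length, the densest among genes with at least 5 members were SUSD6 with 6.76 per 100 kb (7 members of 15 intragenic distal regions) and STARD8, on the X chromosome, with 6.40. CUEDC1, CDH1, KIF5C, PLEKHA6, PLEKHM3 and FAT1, an atypical cadherin, followed with 5.31 to 4.32. CDH1, which encodes the epithelial adhesion molecule E-cadherin, held 5 members of 13 regions, the strongest in intron 2 (chr16:68744779-68745199) with fold enrichments of 8.73 and 8.98.

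Transcription factor genes of pancreatic progenitors held many members. In a list of 30 such genes, 22 had an intragenic distal region and 17 of these held 84 members, which was 25.1% of their 335 regions and 2.37 members per 100 kb, compared with 17.4% and 0.938 per 100 kb over all protein-coding genes. Of the same 335 regions, 56 were called in all 4 lists, compared with 8535 of 74486 over all protein-coding genes. The list was thus rich in constant regions as well, and the excess was not particular to members. RARB, a retinoic acid receptor, held 18, with fold enrichments of 3.43 to 10.1 in replicate 1 and 3.97 to 13.3 in replicate 2. GLIS3, a zinc finger factor required for β cells, held 14 of 70 regions, the strongest in intron 2 (chr9:4277527-4278254) with values of 8.38 and 10.0. RFX3, a regulator of cilia and islet genes, held 9 of 19, the strongest in intron 1 (chr9:3498704-3499128) with values of 12.7 and 12.5. Short genes such as SOX9, PDX1 and FOXA2 had no intragenic distal region and could hold none. Among the 84 members, 20 held GATA letters, 13 ONECUT letters, 11 FOXA letters and 1 the CTCF consensus.

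By the member share of regions, Notch pathway genes came next among the 10 gene lists. Of 31 genes with an intragenic distal region, 16 (51.6%) held 54 members, where 46.4% of all such genes held any. These members were 24.2% of 223 regions and 1.82 per 100 kb. Regions called in all 4 lists were 34 of the 223, compared with 8535 of 74486 over all protein-coding genes. This list was thus also rich in constant regions, and the excess was not particular to members. The Mastermind coactivators of Notch led, with 15 in MAML3 (3.43 per 100 kb) and 13 in MAML2 (3.55 per 100 kb), while MAML1 held none of its 5 regions. RBPJ itself held 5, the strongest of which (chr4:26252435-26252888) had fold enrichments of 8.91 and 15.3. Chosen after their values were seen, the receptor gene NOTCH1 held 3 of its 5 regions as members, and the short target genes HES1 and HEY1 had no intragenic distal region. RBPJ letters were found in 1 of the 54 members.

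Growth factor receptors and SMADs held 63 members in 21 of 29 genes, 22.0% of their regions. ERBB4 held 13, BMPR1B 9, EGFR 6 of 26 and FGFR1 4 of 6. The strongest EGFR member, 1065 bp in intron 1 (chr7:55120535-55121599), had fold enrichments of 7.98 and 7.12. Hippo and WNT effectors held 51 in 19 of 25 genes, 20.2% of their regions, with 6 each in TCF7L2 and WWTR1, which encodes the coactivator TAZ, and 5 each in YAP1 and TEAD1. TCF7L2 was counted in this list and in that of pancreatic progenitor factors.

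The remaining lists varied in both measures. Neuronal synapse and adhesion genes held 308 members in 29 of 30 genes, which was 20.3% of their regions but 0.820 per 100 kb. Genes of epithelial junctions held 40, 14.5% of their regions, with 11 in PARD3, a polarity protein gene, and 5 in CDH1. Mesenchyme and matrix genes held 24 (23.1%), of which 10 lay in CDH2, the N-cadherin gene. Endocrine genes held 16 (18.8%), with 6 in the zinc transporter gene SLC30A8 and 2 in ABCC8, which encodes the sulfonylurea receptor. Liver genes held 12 (17.6%), among them 4 in CPS1, a urea cycle enzyme gene, 2 in TTR and 1 in ALB, and 4 in PROX1, which was also in the list of pancreatic factors. Pluripotency genes held 6 (13.3%), with 3 in LIN28B and none in POU5F1. These lists were not tested against other genes.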

How the data were processed

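ATAC-seq was measured in 4 libraries, 2 with DMSO and 2 with I-BET151. Per the study's methods, the authors aligned reads to hg38 with Bowtie2 2.2.5, discarded PCR duplicates and reads of mitochondrial origin, and ran MACS2 2.1.2 on every library separately. The deposited peak lists give a fold enrichment ratio, a −log10 p, a −log10 q and an integer score, of which the score and q-value were not used. The methods state a p threshold of 1e-05, and between 7.54% and 10.9% of the peaks in each list had a larger p.

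Peaks of all lists were merged and placed on GENCODE release 44 genes in Python 3.11.15 (pandas 2.3.3, numpy 2.4.6, scipy 1.17.1). A region in several genes was assigned to the one with the nearest start. Pileups were solved from fold enrichment and p-value, for 100% of the peaks in 3 lists and 99.97% in I-BET151 replicate 1, and depth was derived from the genome background with a genome of 2.7 Gb. The length to which reads were extended was taken as the shortest peak of each list, 200 and 233 bp with DMSO and 200 and 256 bp with I-BET151. The study's methods state 200 bp, which would give both replicate 2 libraries a higher depth. Depth is therefore an estimate, and intervals cover counting error only. Status calls, pileups and motif searches were tested on simulated data. Shares per library were compared by a two-sided exact permutation test over libraries. GC weighting used bins of 5 percentage points. The members, gene lists, motifs and markers were chosen with earlier results of these data known. Named were the 12 members with the highest lower fold enrichment, 6 with CTCF, 1 for each other motif, the 8 genes with the most members and the 8 with the most per length, and up to 4 genes of each list by members. Some genes that this rule names are not reported here. MAML1, SOX9, PDX1, FOXA2 and POU5F1 were named after their values were seen. Alternatives changed the peak threshold, list size, overlap, distance, gene model, motif window and libraries.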

Additional observations from a re-analysis of the deposited data

How the results depend on the processing

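With −log10 p of at least 10, there were 7298 members, an intragenic distal share of gained regions of 43.1%, a CTCF share of 5.84% and a CTCF difference from constant regions of 4.61 percentage points. With equal numbers of peaks, these were 2682, 44.7%, 5.48% and 3.40, with 1997 host genes. The intragenic distal share was 44.9% when peaks had to cover at least 50% of the region, 48.1% and 42.4% at 1 and 10 kb from gene starts, and 38.0% with every transcript start. A motif window of 50 bp gave a CTCF share of 2.45% and a difference of 1.16, and 250 bp gave 5.00%. Alternatives chosen after seeing the data were 1 mismatch, with 13.8% and 4.67, and the stricter lists for following calls. In the order I-BET151-only and DMSO-only of lists 1, then of lists 2, the shares that kept their direction were 87.0%, 1.79%, 29.8% and 47.3% with −log10 p of at least 10, 38.0%, 23.4%, 43.8% and 31.4% with equal numbers of peaks, and 63.9%, 7.01% and 34.5% for the first 3 with −log10 p of at least 5. At the members' GC content, the differences from constant regions reversed to -2.36 for FOXA, -3.18 for GATA, -0.84 for TAATTA, -0.95 for SOX and 0.81 for the E-box. Leaving out 1 library at a time gave 13695 to 31195 members, 5633 to 8360 host genes, an intragenic distal share of 46.2 to 48.3%, a CTCF share of 2.39 to 4.22% and a CTCF difference of 0.268 to 1.59. Over libraries the same gave 1.22 to 6.50 for the intragenic distal share and 0.885 to 1.94 for CTCF. Fewer lists in the rule account for the larger member counts, and the cause of the other shifts was not tested. With the replicate block, the paired differences were 3.86 and 1.41 percentage points, equal to those without it, with no test. Same-numbered lists shared 27.7% and 26.7% of their regions and crossed pairs 30.4% and 30.5%. The lists differ in length, so these shares cannot show whether same numbers pair cultures, and the labels do not say. The numbers only name the lists, also where calls of lists 1 were followed in lists 2. Shallow I-BET151 libraries limit the precision of single regions.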
